A study of Arabidopsis thaliana with 24 samples.

Results

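The type-A response regulators are 9 Arabidopsis thaliana genes here, taken by their locus identifiers from a table of read counts over 32678 loci: ARR3 (AT1G59940), ARR4 (AT1G10470), ARR5 (AT3G48100), ARR6 (AT5G62920), ARR7 (AT1G19050), ARR8 (AT2G41310), ARR9 (AT3G57040), ARR15 (AT1G74890) and ARR16 (AT2G40670). All 9 of 9 were found. They were followed over 8 groups of seedlings with 3 RNA sequencing libraries each. The groups combined the genotype (cpd, or the triple mutant bri1-701 brl1 brl3), the age (7 or 24 days) and the treatment (none, or brassinolide, BL, an active brassinosteroid). The cpd plants are defective in CPD, an enzyme of brassinosteroid synthesis, and keep the receptors. The triple mutant is defective in the brassinosteroid receptor BRI1 and its relatives BRL1 and BRL3. Every group thus carries a brassinosteroid mutation, and no wild-type library was analysed here. How much BL was given, and for how long, is not stated in the labels.

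Cytokinin is perceived at membrane receptor kinases (AHK2, AHK3 and AHK4), passed on as a phosphate by the AHP proteins, and read in the nucleus by the type-B response regulators, which are transcription factors. Type-A genes are direct targets of the type-B factors and are induced within minutes of cytokinin treatment. Their short proteins hold a phosphate receiver domain without a DNA-binding domain and act back on the pathway as inhibitors, so that their transcripts are both a readout of cytokinin signalling and a brake on it. They form pairs of close relatives: ARR3 with ARR4, ARR5 with ARR6, ARR7 with ARR15, and ARR8 with ARR9, while ARR16 is paired with ARR17, which lies outside the rule used here.

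Upstream stretches of 3 members are shown because ARR5 and ARR9 rose together with BL in 7-day cpd and ARR7 fell there. Each is the 250 bases before the annotated gene start in TAIR10.1, from RefSeq, written 5′ to 3′ on the gene's strand. The ARR5 stretch is chr3:17760951-17761200 (minus strand), that of ARR7 is chr1:6579315-6579564 (minus strand) and that of ARR9 is chr3:21108809-21109058 (plus strand). Capitals mark AGATT on either strand (AATCT on the reverse), a core that type-B response regulators are known to bind. Variants of this word were not searched.
ARR5: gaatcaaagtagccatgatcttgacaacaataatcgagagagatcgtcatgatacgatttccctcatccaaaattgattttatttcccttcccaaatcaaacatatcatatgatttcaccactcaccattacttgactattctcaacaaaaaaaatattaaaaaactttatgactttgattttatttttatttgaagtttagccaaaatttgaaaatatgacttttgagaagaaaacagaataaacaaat
ARR7: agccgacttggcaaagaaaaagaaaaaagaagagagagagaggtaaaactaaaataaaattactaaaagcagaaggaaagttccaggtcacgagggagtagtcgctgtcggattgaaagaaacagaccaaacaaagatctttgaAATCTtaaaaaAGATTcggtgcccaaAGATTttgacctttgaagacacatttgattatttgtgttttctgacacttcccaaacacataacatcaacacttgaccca
ARR9: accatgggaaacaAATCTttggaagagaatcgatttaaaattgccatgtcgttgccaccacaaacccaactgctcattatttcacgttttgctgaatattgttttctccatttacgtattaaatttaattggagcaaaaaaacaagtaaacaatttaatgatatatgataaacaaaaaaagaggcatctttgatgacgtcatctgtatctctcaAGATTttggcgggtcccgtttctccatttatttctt
The ARR5 stretch holds no AGATT, whereas that of ARR7 holds 3, which begin 106, 95 and 80 bases before the gene start, and that of ARR9 holds 2, which begin 237 and 36 bases before it. The word is common: 63.7% of 27443 upstream stretches of the same length hold it at least once, 27.9% at least 2 times and 9.26% at least 3 times. Among the other members ARR6 holds 3, ARR16 holds 2, ARR3, ARR8 and ARR15 hold 1 each, and ARR4 holds 0. The words linked to brassinosteroid transcription factors that were searched on both strands were CGTGCG (in 1.57% of all stretches), CGTGTG (in 5.37%) and the palindrome CACGTG (in 6.49%). Of the 9 members 0 hold any of them. These are matches of letters in a short window and not measured binding.

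The libraries held 10180880 to 12531699 counts at 7 days and 17243503 to 20563151 at 24 days. Levels below are CPM (counts scaled to the library total) after normalisation between libraries, and a gene with 0 counts could be as high as 0.295 CPM at 7 days or 0.174 CPM at 24 days (3 counts, counting error only). Replicates lay much closer at 7 days than at 24 days, with a common biological coefficient of variation of 2.01% against 15%. Over all libraries BRI1 was at 96.1 to 278 CPM in cpd and 44.6 to 78.6 CPM in the triple mutant, BRL1 at 5.32 to 14.1 and 2.07 to 5.29 CPM, BRL3 at 7.40 to 42.6 and 2.03 to 5.45 CPM, and CPD at 9.37 to 119 and 330 to 438 CPM. The labelled tissue is seedling, and 6 of 6 green tissue markers were detected in each group. Of 12 root markers, 4 to 5 were at 0 in all libraries of a 7-day group, among them COBL9 and TIP2;3 in each of the 4 groups, while none was at 0 throughout a 24-day group.

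ARR4, which is known to interact with the photoreceptor phytochrome B, was the most abundant member at 7 days. Its level per kilobase of exon was 8.71 ± 0.50 CPM per kb in untreated cpd (SD, n = 3), followed by ARR7 at 5.69 ± 0.86, ARR9 at 2.51 and ARR8 at 1.78 CPM per kb, and none of these neighbours overlapped. ARR16, ARR5 and ARR6 followed at 1.07, 0.92 and 0.72 CPM per kb, with overlap between neighbours. ARR3 and ARR15 were lowest. At 24 days ARR7 had the highest mean in each of the 4 groups, between 7.60 CPM per kb (cpd without BL) and 22.5 CPM per kb (triple mutant without BL), but its libraries overlapped those of the next gene in every group.

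**Figure D1:**
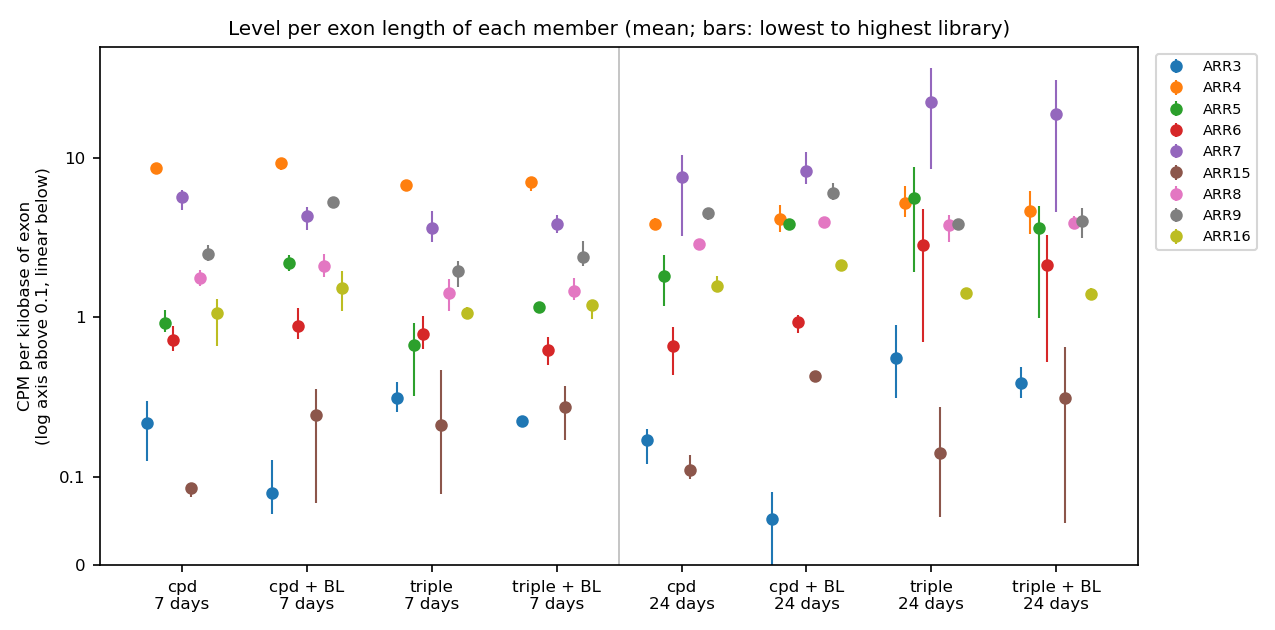
Level of each member in CPM per kilobase of exon (log axis above 0.1, linear below) in the 8 groups, with points for the mean of 3 libraries and bars from the lowest to the highest. ARR4 is highest at 7 days, ARR7 has the highest mean at 24 days, and ARR3 and ARR15 are the lowest members in the untreated 7-day cpd group.

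Summed over the 9 members, the normalised level in 7-day cpd was 37.6 ± 3.26 CPM without BL and 46.6 ± 0.904 CPM with it (SD, n = 3), and the libraries did not overlap. In the 7-day triple mutant the sums were 29.8 ± 2.02 and 32.2 ± 1.33 CPM, and the libraries overlapped. At 24 days the sums were 38.0 ± 4.72 and 49.5 ± 3.85 CPM in cpd and 64.7 ± 25.8 and 56.8 ± 22.6 CPM in the triple mutant, where the SD was far larger.

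**Figure D2:**
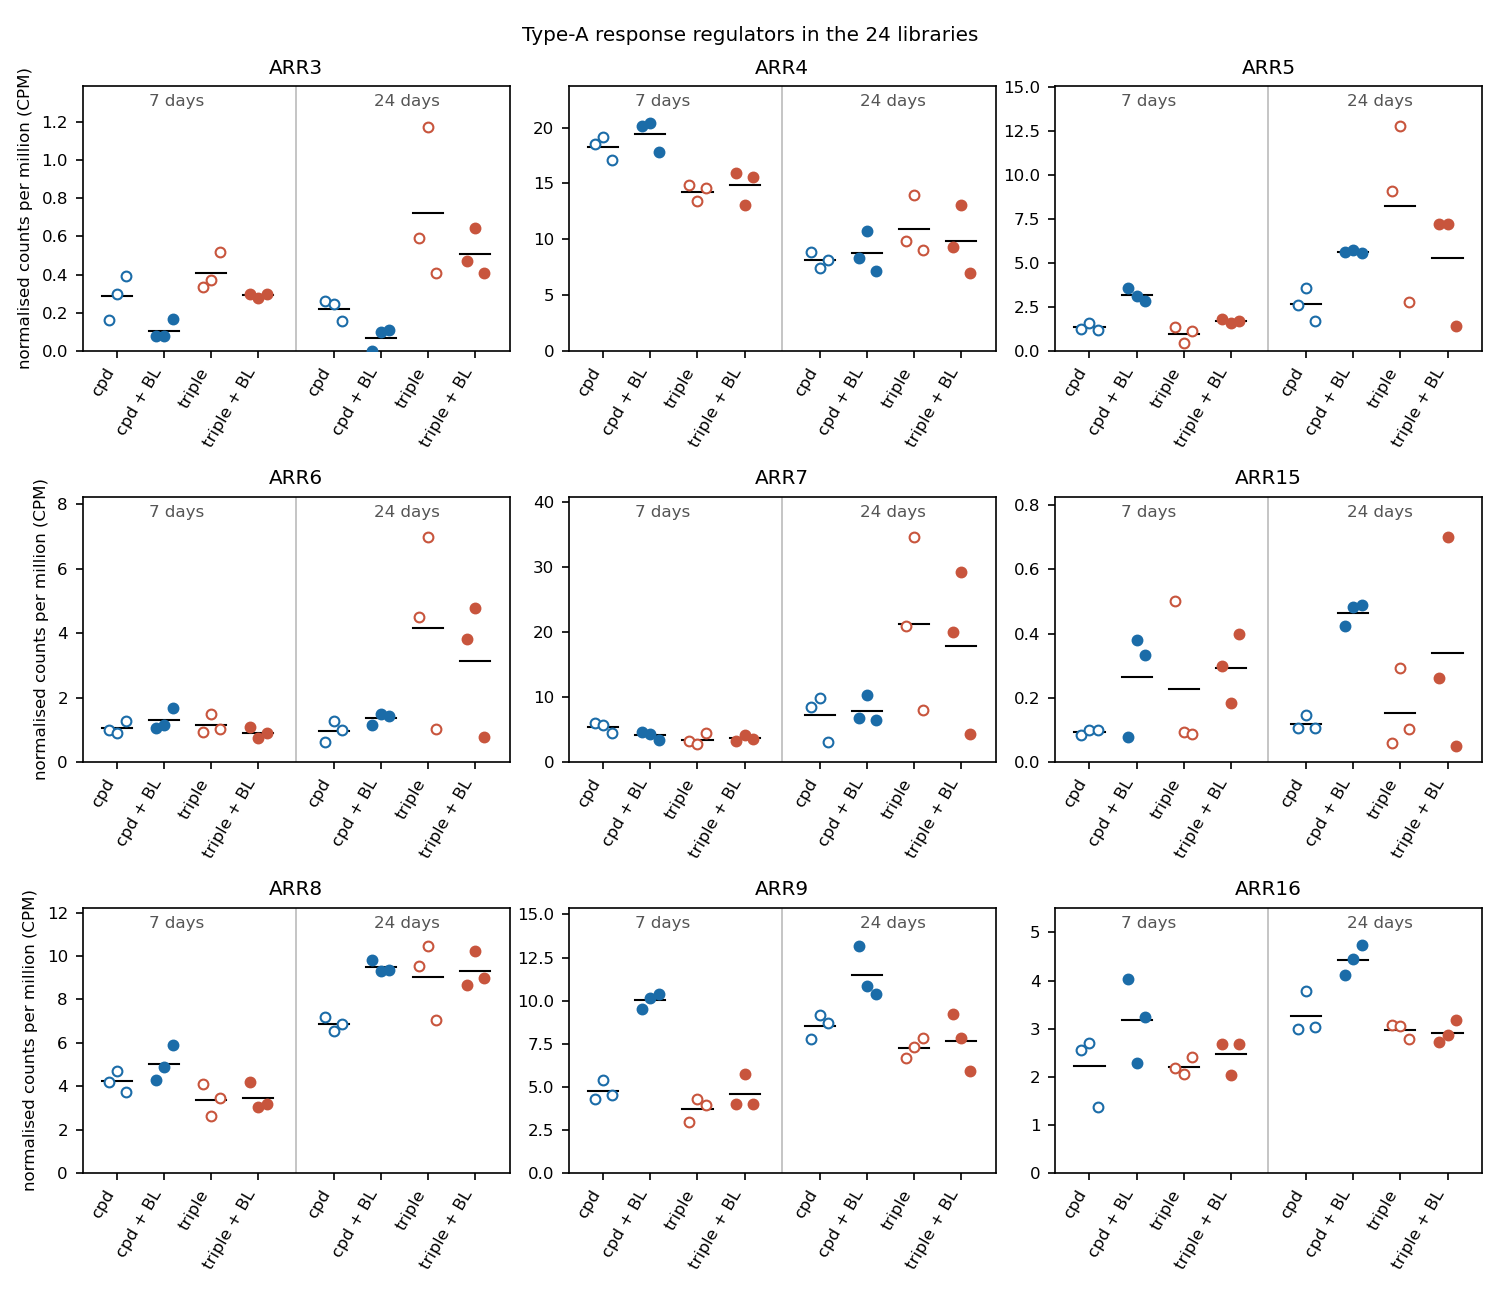
Normalised CPM of the 9 members in the 24 libraries (points, open for untreated and filled for BL, blue for cpd and red for the triple mutant, lines for group means of 3). ARR5 and ARR9 stand higher with BL in cpd at 7 days, and ARR5, ARR6 and ARR7 spread widely in the triple mutant at 24 days.

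In 7-day cpd, ARR5, ARR9 and ARR16 rose and ARR7 fell with BL. The values of ARR5, whose promoter is a widely used cytokinin reporter, were 1.24, 1.61 and 1.18 CPM without BL and 3.58, 3.12 and 2.83 CPM with it. The groups did not overlap, and the level rose by 1.25 ± 0.25 on the log2 scale, 2.38-fold (SE; edgeR's quasi-likelihood test, Benjamini-Hochberg adjusted p = 1.16e-05). ARR9 stood at 4.28, 5.42 and 4.53 CPM without BL and at 9.52, 10.13 and 10.4 CPM with it. Here too each treated library was above each untreated one, and ARR9 rose 2.12-fold (log2 change 1.08 ± 0.14, edgeR adjusted p = 2.10e-10). ARR5 and ARR9 kept their calls in 13 of 13 alternative analyses each.

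The other 2 calls were smaller and depended on single libraries. ARR16 was at 2.55, 2.71 and 1.38 CPM without BL and at 4.04, 2.29 and 3.24 CPM with it, so that the groups overlapped (log2 change 0.51 ± 0.22, edgeR adjusted p = 0.0453). The call was lost without untreated replicate 3 (0.28, adjusted p = 0.329), without BL replicate 1 (0.30, edgeR adjusted p = 0.334) or without BL replicate 3 (0.50, edgeR adjusted p = 0.0811). ARR7, which in the shoot meristem is repressed by WUSCHEL, was at 5.93, 5.72 and 4.43 CPM without BL and at 4.65, 4.27 and 3.33 CPM with it. These groups overlapped as well (log2 change -0.39 ± 0.17, edgeR adjusted p = 0.0366), and the call of ARR7 was lost without BL replicate 2 (-0.42) or 3 (-0.27) or untreated replicate 1 (-0.31) or 2 (-0.35). DESeq2 called ARR5 and ARR9 and neither of these genes (adjusted p = 0.171 for ARR16 and 0.174 for ARR7). It called 8541 genes in all in this comparison.

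ARR4, ARR6 and ARR8 did not pass the test in 7-day cpd. The 95% interval of the log2 change was -0.07 to 0.26 for ARR4, -0.35 to 0.91 for ARR6 and -0.09 to 0.57 for ARR8. In all, 4 of 7 members tested were called, 3 higher and 1 lower. Over all genes tested, 57.3% were called in this comparison, 27.7% higher and 29.5% lower, so the count of members is close to the background. The median log2 change of the 7 members was 0.28, against -0.0016 over all genes tested.

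Tissue markers moved with BL at 7 days as well. In cpd 6 of 6 green tissue markers were called higher, and their summed level went from 3261 to 3381 CPM without BL to 4427 to 4493 CPM with it. The summed root markers of cpd went from 173 to 190 CPM down to 127 to 129 CPM. Of the 5 root markers tested in cpd, 1 was called higher and 2 lower, and 4 had a negative value. In the triple mutant 5 of the 6 green tissue markers were called higher, with sums of 3380 to 3542 CPM without BL and 3954 to 4103 CPM with it. The summed root markers of the triple mutant went up from 185 to 193 CPM to 206 to 221 CPM. The single root markers were mixed, with 2 of 5 tested called higher and 1 lower, and 3 of the 5 had a negative value. Over all genes 57.3% were called in cpd and 22.4% in the triple mutant. The part of these markers' tissues in the members' changes with BL, and in the genotype difference with BL at 7 days, was not tested.

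In the 7-day triple mutant, 0 of 7 members passed edgeR's test of the BL effect, where 22.4% of all genes did. ARR5 alone had an unadjusted p under 0.05, and DESeq2 called 0 members, against 6035 and 2427 over all genes. ARR5 was at 1.34, 0.466 and 1.12 CPM without BL and at 1.79, 1.57 and 1.69 CPM with it. The groups did not overlap, but the log2 change of 0.75 ± 0.32 missed the threshold (edgeR adjusted p = 0.0773). Without untreated replicate 1 it passed (1.05, edgeR adjusted p = 0.0389). ARR9 was at 2.93, 4.28 and 3.96 CPM without BL and at 3.98, 5.72 and 3.98 CPM with it. Its groups overlapped, and its log2 change was 0.31 ± 0.18 (edgeR adjusted p = 0.232).

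**Figure D3:**
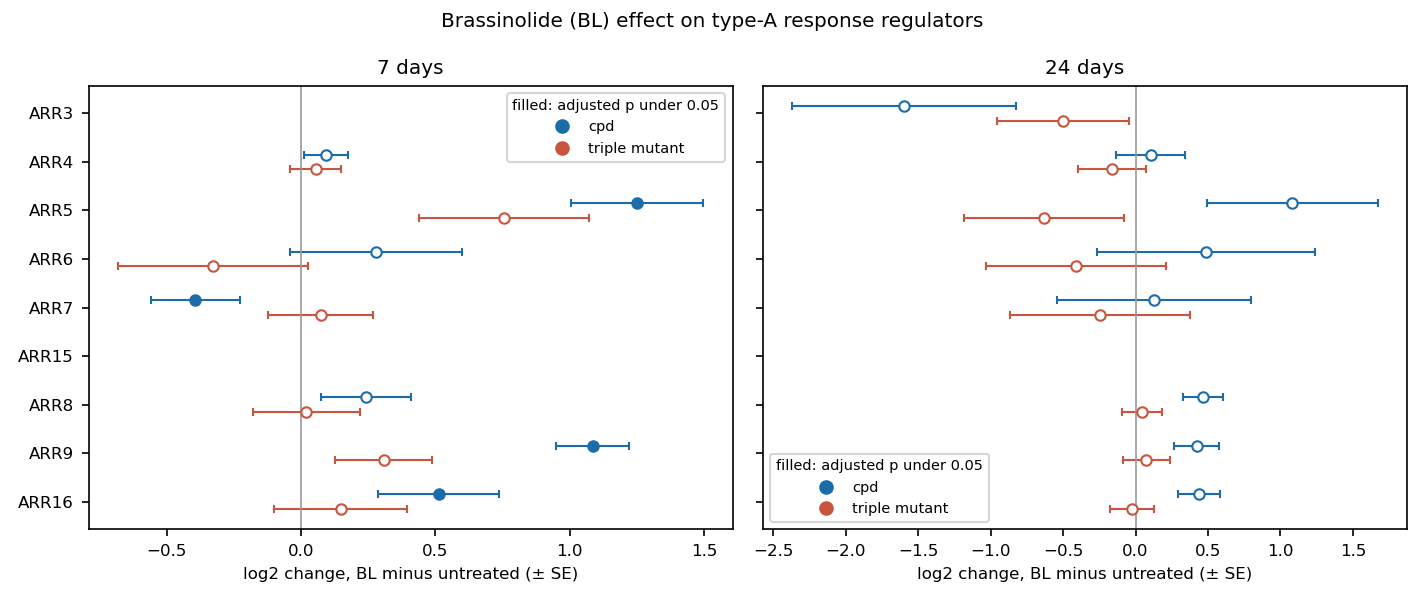
Log2 change with BL (x axis, points with SE bars) of each member tested in cpd (blue) and in the triple mutant (red) at 7 and 24 days, filled where the adjusted p was under 0.05. The filled points are ARR5, ARR9, ARR16 and ARR7 in cpd at 7 days, and ARR9 is the member whose 2 changes at 7 days were tested as different.

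The BL effect itself was compared between the genotypes at 7 days. ARR9 responded less in the triple mutant, by -0.78 ± 0.23 on the log2 scale (edgeR's quasi-likelihood test of the interaction, adjusted p = 0.00412). It was the 1 member of 7 past the test, where 41.0% of all genes were. For ARR5 the difference of -0.50 had a 95% interval of -1.31 to 0.32 (edgeR adjusted p = 0.363), so a different response of ARR5 in the 2 genotypes was not shown. The difference for ARR7 was 0.47 with an interval of -0.04 to 0.97.

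At 24 days BL left 0 of 8 members tested past edgeR's test in cpd, where 9.72% of all genes were called. ARR8, ARR9 and ARR16 had an unadjusted p under 0.05, and DESeq2 called ARR8 alone. Over all genes 4810 of 19731 had such an unadjusted p, and DESeq2 called 2480. Still, 5 of the 8 had groups that did not overlap, which held for 31.7% of all genes. ARR5 was at 2.63, 3.59 and 1.72 CPM without BL and at 5.60, 5.71 and 5.54 CPM with it. The log2 change of 1.08 was close in size to that at 7 days, with an SE of 0.59 (edgeR adjusted p = 0.293). In a fit of the 2 cpd groups alone ARR5 passed (1.07 ± 0.24, edgeR adjusted p = 0.0294), which was the case in 1 of 13 alternative analyses. ARR8, a close relative of ARR9, was at 7.20, 6.53 and 6.89 CPM without BL and at 9.83, 9.30 and 9.35 CPM with it. All 3 treated libraries were above the untreated ones (log2 change 0.47 ± 0.14, edgeR adjusted p = 0.0577). With the replicate number as a block, ARR8 passed (0.46 ± 0.13, edgeR adjusted p = 0.0402). ARR9 changed by 0.42 ± 0.16 and ARR16 by 0.44 ± 0.14 on the log2 scale, neither past the test (edgeR adjusted p = 0.116 and 0.0788).

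The BL effect in cpd was also set against age in a fit of all 24 libraries. Each age has its own set of libraries, so age and library set cannot be told apart. At 24 days the BL effect was smaller than at 7 days for ARR9 by -0.66 ± 0.23 on the log2 scale, without passing (edgeR adjusted p = 0.0711). In all, 0 of 7 members passed edgeR's test, where 9.68% of all genes did. ARR9 alone had an unadjusted p under 0.05, and DESeq2 called 0 members, against 4708 and 2072 over all genes. With the replicate block within age ARR9 passed (-0.67 ± 0.21, edgeR adjusted p = 0.0383).

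In the 24-day triple mutant 0 of 8 members passed the test of BL, and 0% of all genes did (0 of 19731, with 773 at an unadjusted p under 0.05). At an unadjusted p under 0.05 there were 0 members, and DESeq2 also called 0. ARR5 was at 9.06, 12.8 and 2.79 CPM without BL and at 7.23, 7.19 and 1.43 CPM with it. In each replicate number the treated library was lower, at 0.798, 0.563 and 0.513 of the untreated one, whereas in cpd the same ratios were 2.13, 1.59 and 3.22. The difference between the BL effects had a log2 value of -1.71 ± 0.81 for ARR5 and did not pass (edgeR adjusted p = 0.315). In all, 0 of 8 members passed edgeR's test of this difference, where 2.75% of all genes did. ARR16 alone had an unadjusted p under 0.05, and DESeq2 called 0 members, against 3304 and 1061 over all genes.

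Without BL, ARR4 and ARR7 were lower in the triple mutant than in cpd at 7 days. ARR4 was at 18.5, 19.2 and 17.1 CPM in cpd and at 14.8, 13.4 and 14.5 CPM in the triple mutant, which was 1.28-fold lower (log2 change -0.36 ± 0.09, edgeR adjusted p = 0.00147). ARR7 was at 5.93, 5.72 and 4.43 CPM in cpd and at 3.19, 2.79 and 4.39 CPM in the triple mutant, 1.55-fold lower (log2 change -0.63 ± 0.18, edgeR adjusted p = 0.00375). Neither pair of groups overlapped, though the gap of ARR7 was only that between 4.39 and 4.43 CPM, and the share of all genes without overlap is not given here. These were 2 of 7 members tested, both lower, where 27.9% of all genes were called, 12.9% higher and 15% lower. Both calls were lost when the larger spread of the 24-day libraries was assumed.

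With BL at 7 days the triple mutant was lower than cpd in ARR9, ARR5, ARR8 and ARR4. The log2 differences were -1.12 ± 0.14 for ARR9, -0.92 ± 0.24 for ARR5, -0.53 ± 0.18 for ARR8 and -0.39 ± 0.09 for ARR4 (edgeR adjusted p = 1.37e-10, 0.000656, 0.0093 and 9.43e-05). In each of the 4 genes the groups did not overlap, and the share of all genes without overlap is not given for this comparison. ARR8 was at 4.27, 4.88 and 5.90 CPM in cpd and at 4.18, 3.04 and 3.18 CPM in the triple mutant, and its call was lost without BL replicate 3 of cpd (-0.40, edgeR adjusted p = 0.082) or BL replicate 2 of the triple mutant (-0.44, edgeR adjusted p = 0.0639). Over all genes 53.4% were called, 27.5% higher and 25.9% lower, and all 7 members tested had a negative value, with a median of -0.50 against -0.0008 over all genes tested. This comparison shares its libraries with the BL effects above.

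**Figure D4:**
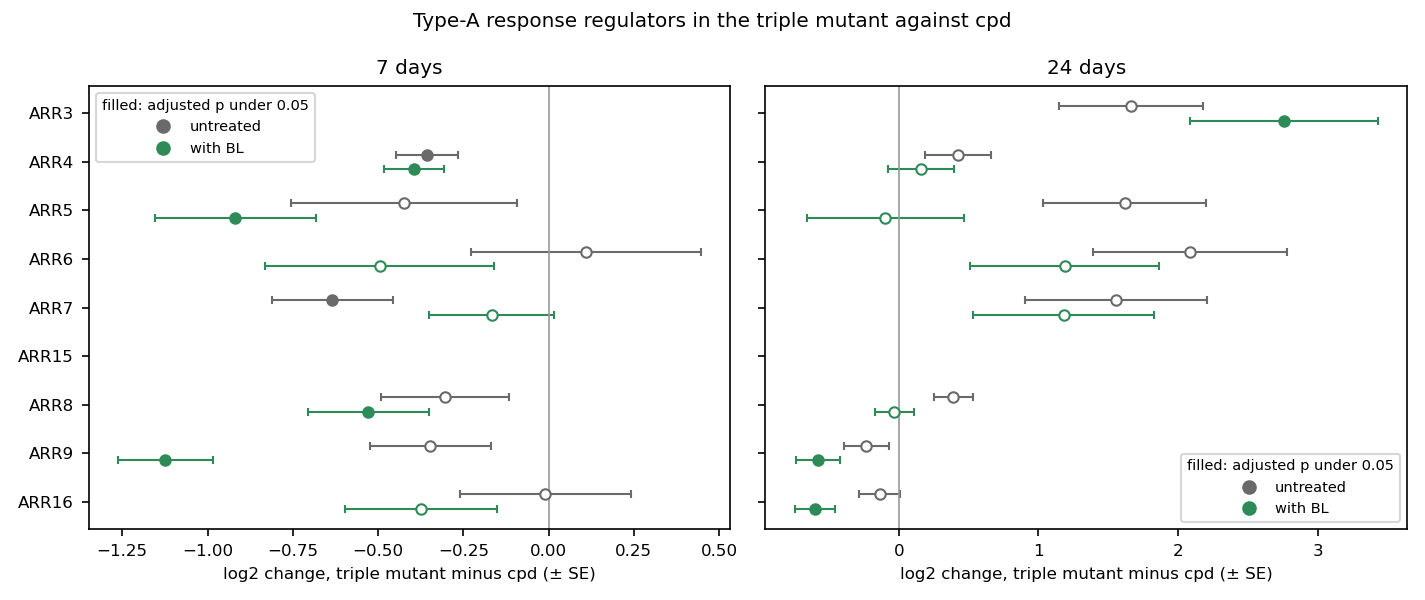
Log2 difference between the triple mutant and cpd (x axis, points with SE bars) for each member tested, without BL (grey) and with BL (green), at 7 and 24 days, filled where the adjusted p was under 0.05. At 7 days filled points lie to the left of 0, and at 24 days the untreated values of ARR3, ARR5, ARR6 and ARR7 lie to the right with wide bars and are not filled.

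At 24 days the untreated triple mutant had higher group means than cpd in ARR3, ARR5, ARR6 and ARR7, but its libraries differed widely. ARR5 was at 2.63, 3.59 and 1.72 CPM in cpd and at 9.06, 12.8 and 2.79 CPM in the triple mutant. ARR6, the closest relative of ARR5, was at 0.630, 1.28 and 0.992 CPM in cpd and at 4.50, 7.00 and 1.02 CPM in the triple mutant. ARR7 was at 8.51, 9.92 and 3.08 CPM in cpd and at 20.95, 34.7 and 8.02 CPM in the triple mutant. In all 3 genes the triple mutant's replicate 3 fell within the range of cpd and the other 2 libraries stood above it. The log2 differences were 1.62 ± 0.58 for ARR5, 2.08 ± 0.69 for ARR6, 1.56 ± 0.65 for ARR7 and 1.66 ± 0.51 for ARR3 (edgeR adjusted p = 0.167, 0.145, 0.225 and 0.127).

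Thus 0 of 8 members passed edgeR's test without a replicate block in the untreated comparison at 24 days, where 1.04% of all genes did. At an unadjusted p under 0.05 there were 5 (ARR3, ARR5, ARR6, ARR7 and ARR8), and DESeq2 called ARR6 alone. Over all genes 3809 of 19731 had such an unadjusted p, and DESeq2 called 1045. The groups did not overlap for 2 of the 8 (ARR3 and ARR4), against 22.5% of all genes. Within a replicate number the triple mutant was above cpd in 3 of 3 numbers for each of these genes, by 3.45, 3.56 and 1.62 times for ARR5, by 7.14, 5.48 and 1.02 times for ARR6, by 2.46, 3.495 and 2.60 times for ARR7 and by 2.25, 4.79 and 2.59 times for ARR3. With the replicate number as a block 4 members passed: ARR7 (1.51 ± 0.31), ARR5 (1.54 ± 0.39), ARR6 (1.94 ± 0.52) and ARR3 (1.65 ± 0.44; edgeR adjusted p = 0.0232, 0.0429, 0.048 and 0.0481). The share of all genes is not given for the block, for the ratios within a replicate number or for the omissions below. ARR3 had passed the filter on low counts at 24 days only through libraries of the triple mutant, where it was high, so none of its values here is independent support. Without replicate 3 of the untreated triple mutant alone, ARR3, ARR5, ARR6 and ARR8 passed (1.96, 2.04, 2.56 and 0.54), and with replicate 3 left out of every 24-day group ARR5, ARR6 and ARR7 passed (1.82, 2.58 and 1.60).

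Levels moved with the replicate number at 24 days. ARR5 and ARR7 were lowest in replicate 3 in 4 of 4 groups, and ARR7 and ARR6 were highest in replicate 2 in 4 of 4, whereas ARR6 was lowest in replicate 3 in 2 of 4. Over all genes the closest pair of libraries was replicates 1 and 2 in both cpd groups and replicates 1 and 3 in both triple mutant groups. The summed level of 12 root markers moved with the replicate number as well. It was 229, 242 and 444 CPM in untreated cpd and 331, 377 and 453 CPM in the untreated triple mutant. With BL it was 238, 251 and 330 CPM in cpd and 307, 369 and 413 CPM in the triple mutant, so that replicate 3 was highest in all 4 groups. In whole seedlings a different share of root cells and a different RNA level per cell cannot be told apart, and the part of either in the values of ARR5 to ARR7 was not tested.

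**Figure D5:**
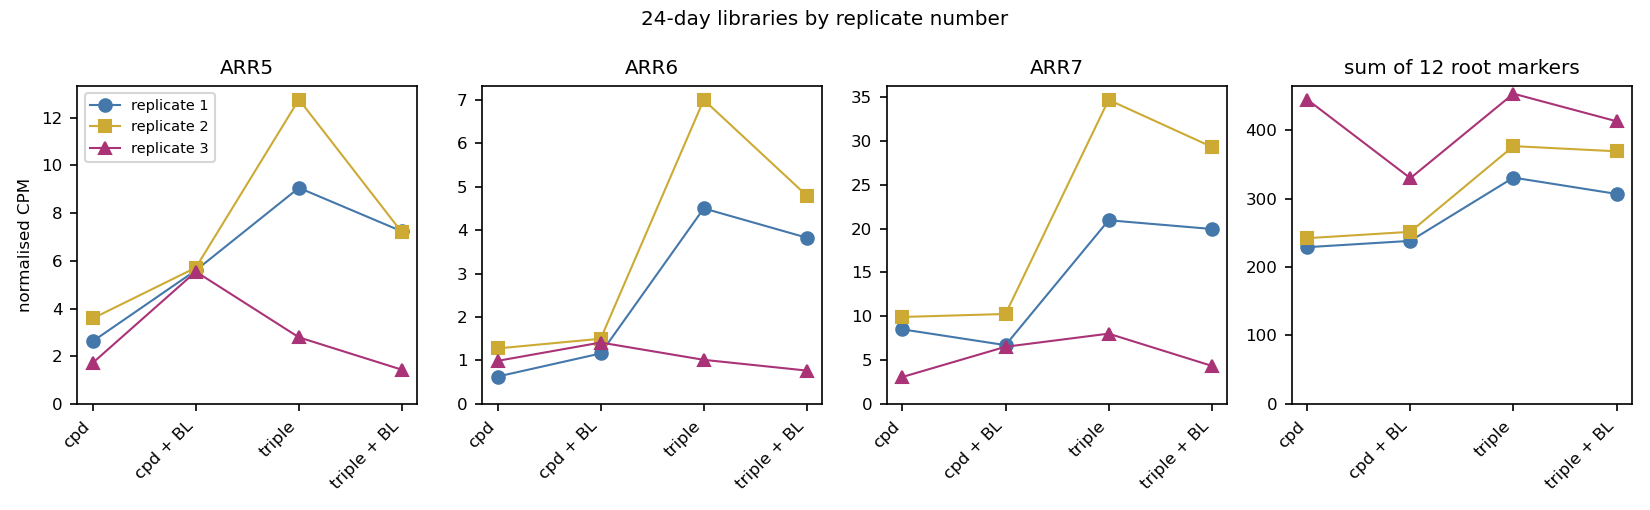
Normalised CPM of ARR5, ARR6 and ARR7 and the summed CPM of 12 root markers in the 4 groups of 24-day seedlings, with 1 line for each replicate number. Replicate 3 is lowest for ARR5 and ARR7 and highest for the root markers in each group.

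With BL at 24 days, 3 of 8 members differed between the genotypes, ARR3 higher and ARR9 and ARR16 lower in the triple mutant, where 11.1% of all genes did, 5.60% higher and 5.48% lower. ARR9 was at 13.2, 10.8 and 10.4 CPM in cpd and at 9.22, 7.83 and 5.94 CPM in the triple mutant (log2 difference -0.58 ± 0.16, edgeR adjusted p = 0.0359). ARR16 was at 4.12, 4.45 and 4.73 CPM in cpd and at 2.72, 2.86 and 3.17 CPM in the triple mutant (log2 difference -0.60 ± 0.14, edgeR adjusted p = 0.021). Neither gene's groups overlapped, again without a share over all genes. Each call was lost in several single omissions: that of ARR9 without BL replicate 1 or 2 of cpd or 2 or 3 of the triple mutant (edgeR adjusted p up to 0.152), and that of ARR16 without BL replicate 2 or 3 of cpd or 1 or 2 of the triple mutant (edgeR adjusted p up to 0.0722). In a fit of these 2 groups alone 0 members passed, and the share of all genes is not given for this fit or for the omissions. With replicate 3 left out of every 24-day group none of the 3 calls held (edgeR adjusted p = 0.0542 for ARR3, 0.114 for ARR9 and 0.106 for ARR16), and ARR6 and ARR7 passed in their place, both higher in the triple mutant (log2 differences 1.69 ± 0.35 and 1.54 ± 0.30, edgeR adjusted p = 0.027 and 0.0218).

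ARR3 and ARR15 were near the detection limit. ARR3 had 0, 2 and 2 counts in BL-treated 24-day cpd and 9, 11 and 8 counts in the BL-treated triple mutant, and the ratio of the summed counts was 7.28 (exact 95% interval 2.55 to 28.6, counting error only). Because of the way ARR3 passed the filter, its call there is no independent support either, and it was lost without BL replicate 1 or 2 of cpd or 2 of the triple mutant. ARR15, the close relative of ARR7, did not pass the filter at either age. It had 2, 3 and 2 counts in untreated 24-day cpd and 8, 10 and 9 with BL, a ratio of 3.90 (exact 95% interval 1.65 to 10.6). Without the filter its log2 change of 1.91 ± 0.73 did not pass (edgeR adjusted p = 0.155). In all 12 libraries at 7 days ARR15 had at most 6 counts and ARR3 also at most 6.

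Between 7 and 24 days without BL, ARR8 and ARR9 rose in both genotypes. The ages also differ in library naming, depth and spread, so age cannot be told apart from the set of libraries. In cpd ARR9 went from 4.74 ± 0.60 to 8.54 ± 0.70 CPM (SD, n = 3) and ARR8 from 4.22 ± 0.49 to 6.87 ± 0.33 CPM. The log2 changes in the fit of all 24 libraries were 0.82 ± 0.17 for ARR9 and 0.67 ± 0.17 for ARR8 (edgeR adjusted p = 0.000225 and 0.00132). ARR16 rose by 0.52 ± 0.21 (edgeR adjusted p = 0.0333), a call lost without untreated replicate 3 of 7-day cpd or replicate 2 of 24-day cpd, and ARR4 fell by 1.20 on the log2 scale (edgeR adjusted p = 6.31e-06). These were 4 of 7 members tested, where 69.9% of all genes were called, 34.9% higher and 34.9% lower.

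In the untreated triple mutant ARR5, ARR7, ARR6, ARR8 and ARR9 rose with age, by 2.99 ± 0.57, 2.56 ± 0.57, 1.80 ± 0.57, 1.36 ± 0.17 and 0.92 ± 0.18 on the log2 scale (edgeR adjusted p = 9.13e-05, 0.000476, 0.0084, 4.48e-07 and 9.94e-05). The call of ARR6 was lost without replicate 2 at 24 days (1.23, edgeR adjusted p = 0.0727). ARR4 fell by 0.43 on the log2 scale (edgeR adjusted p = 0.0403), a call that held in only 3 of 14 alternative analyses. These were 6 of 7 members, 5 higher and 1 lower, against 69.4% of all genes, 34.9% higher and 34.5% lower. The number of members called, 6 of 7, was near the background of 69.4%, but the numbers by direction were not. Higher members, 5 of 7, were above the 34.9% of all genes, and lower members, 1 of 7, were below the 34.5%. Whether this split differs from that of all genes was not tested. The median log2 change of the 7 members was 1.36, against 0.019 over all genes tested. The summed root markers rose with age too, from a range of 173 to 190 CPM in cpd and of 185 to 193 CPM in the triple mutant, both 7 days old and untreated, to the values above. Their part in the changes with age was not tested.

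The difference between the genotypes without BL was itself compared between ages, which cannot be told apart from the sets of libraries. In the fit of all 24 libraries 0 of 7 members passed edgeR's test, where 13.3% of all genes did. At an unadjusted p under 0.05 there were 5 (ARR4, ARR5, ARR6, ARR7 and ARR8), and DESeq2 called ARR4, ARR5 and ARR7. Over all genes 5703 of 19935 had such an unadjusted p, and DESeq2 called 2712. The change was 2.18 ± 0.82 on the log2 scale for ARR7, 2.03 ± 0.87 for ARR5 and 0.77 ± 0.26 for ARR4 (edgeR adjusted p = 0.0805, 0.127 and 0.0526). With the replicate block within age these 3 genes passed, at 2.13 ± 0.44, 1.96 ± 0.67 and 0.74 ± 0.20 (edgeR adjusted p = 0.00267, 0.0467 and 0.0124). With replicate 3 left out of every 24-day group ARR4 to ARR8 passed, and without replicate 3 of the untreated 24-day triple mutant alone the same 5 genes passed. The share of all genes is not given for the block or for these omissions, so these counts have no background beside them.

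Upstream in the pathway the receptors moved in different directions with BL in 7-day cpd. AHK2 rose by 0.85 ± 0.07 and AHK4 by 0.78 ± 0.17 on the log2 scale, whereas AHK3 fell by 0.32 (edgeR adjusted p = 4.24e-17, 7.81e-05 and 3.14e-14). Among the type-B factors ARR1 rose by 0.17 ± 0.04 and ARR14 by 0.49 ± 0.14, and ARR2 fell by 0.32 on the log2 scale (edgeR adjusted p = 0.000207, 0.00172 and 1.33e-05). CKX5, a cytokinin oxidase that breaks cytokinin down, went from 39.4 ± 2.26 to 11.5 ± 0.818 CPM (SD, n = 3; log2 change -1.76 ± 0.08), and UGT85A1, a glucosyltransferase of zeatin, changed by -1.35 ± 0.02 (edgeR adjusted p = 3.11e-32 and 1.55e-54). CKX4, another oxidase, went the other way and rose by 0.56 ± 0.11 (edgeR adjusted p = 1.77e-05). CRF3, a cytokinin response factor, changed by -1.85 ± 0.18 (edgeR adjusted p = 1.01e-14). Over 9 lists of 59 further cytokinin genes, 39 were tested in this comparison, with 8 higher and 11 lower, where 57.3% of all genes were called.

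In the 7-day triple mutant 5 of these 39 genes were higher and 4 lower with BL, where 22.4% of all genes were called, so the count is near the background. The BL effect differed between the genotypes for AHK2 (-0.60 ± 0.10), AHK4 (-0.81 ± 0.26) and CKX5 (1.06 ± 0.11; edgeR adjusted p = 1.46e-06, 0.00917 and 4.55e-13), and in all for 15 of the 39, with 9 positive and 6 negative values, again near the 41.0% of all genes. At 24 days 44 of the 59 genes were tested. With BL in cpd 0 rose and 2 fell, where 9.72% of all genes were called: CKX5 (-1.31 ± 0.18) and UGT85A1 (-0.85 ± 0.19; edgeR adjusted p = 0.000988 and 0.0146). In the untreated triple mutant at 24 days, where 1.04% of all genes were called, IPT7, an enzyme of cytokinin synthesis, was higher than in cpd (1.49 ± 0.355 against 0.443 ± 0.068 CPM, SD, n = 3; edgeR adjusted p = 0.0168), and KMD4, an F-box protein that targets type-B factors, was lower by 0.55 on the log2 scale (edgeR adjusted p = 0.0425). IPT7 had passed the filter on low counts through libraries of the triple mutant, where it was high, so its call is no independent support. The untreated triple mutant at 7 days differed from cpd in 10 higher and 7 lower genes of the 39, where 12.9% of all genes were higher and 15% lower.

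ARR5 had the widest range of log2 group means of the 9 members over both ages, once each age was centred and with 0.5 CPM added. The range ran from -0.74 in untreated 24-day cpd to 0.78 in BL-treated 7-day cpd, so it crosses the ages. Within 24 days ARR5 ran from -0.74 to 0.55 and ARR7 more widely, from -0.67 to 0.74. The 5 other genes with the most similar pattern over the 8 group means were ACO1, FTM1, MSRB9, CRK12 and HIPL2. Their root mean square distance to ARR5 was 0.181, 0.195, 0.208, 0.232 and 0.235 on the log2 scale, the smallest of 6949 genes ranked. Among the members ARR8 was nearest to ARR5, at 0.352. ARR6, its closest relative, was at 0.426. These distances rest on 8 group means that share libraries and are given as a description.

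Reads could be shared between neighbouring genes in 3 members. In TAIR10.1 the ARR6 gene (chr5:25252007-25254318, minus strand) shares 23.9% of its exon bases with AT5G62910 on the plus strand, and whether counting used strand is not stated. Without BL at 24 days AT5G62910 averaged 45.4 CPM in cpd and 45.3 CPM in the triple mutant, while ARR6 was at 0.97 and 4.17 CPM. ARR8 and ARR9 share 12.6% and 10.03% of their exon bases with annotated non-coding genes on the other strand, which are not rows of the count table. ARR5 (chr3:17758427-17760950, minus strand) and ARR7 (chr1:6577833-6579314, minus strand) overlap no other gene. Between members the longest exact run shared by their transcripts was 41 bases, in ARR3 with ARR4 and in ARR8 with ARR9. ARR17, outside the rule, was at no more than 0.277 CPM at 7 days and at 0.254 to 1.95 CPM at 24 days.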

How the data were processed

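The authors deposited 1 table of whole-number read counts for each locus and library. No library column was left out (0). Trimmomatic 0.36, HISAT2 2.1.0, HTSeq 0.9.1 and TAIR10 are named in the submitters' processing notes, and their settings, the use of strand and the handling of reads with several matches are not given in the sources. Per the labels' protocols, frozen seedlings were extracted with Trizol and an Illumina TruSeq RNA kit was used. The genotype label spells the first allele brl1-701 and the design text bri1-701, which was followed.

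The members and gene lists were chosen with earlier results of these data known. Every member is described in every group. From each cytokinin list up to 3 genes past the test with the smallest adjusted p could be named. The genes most like ARR5 were ranked among genes with a mean of at least 5 CPM.

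Counts were normalised by TMM, filtered (filterByExpr, minimum count 10) and tested in edgeR 4.0.16 (R 4.3.3), with a separate fit of 12 libraries for each age and 1 fit of all 24 for comparisons between ages. Genes tested numbered 18378 (7 days), 19731 (24 days) and 19935 (all). The fit of all 24 libraries shares 1 estimate of the spread between the ages. Its common biological coefficient of variation was 10.9%, against 2.01% at 7 days and 15% at 24 days in the separate fits. Adjusted p-values use the Benjamini-Hochberg method over all genes of a fit, with a threshold of 0.05. The SE is the log2 change over the square root of the F statistic. The labels do not say whether libraries of 1 group are from separate plants, and p-values measure a spread that may be technical. No pair of replicates agreed within sampling noise (chi-square per degree of freedom 1.13 to 1.51 at 7 days and 6.38 to 59.1 at 24 days).

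At 24 days libraries with the same replicate number deviated together from their group means, and the numbers were taken to pair the samples. The correlation over genes was 0.119 to 0.761 in 12 pairs of same-numbered libraries from groups compared directly. It was -0.0313 to 0.646 in 6 such pairs from groups not compared directly. The labels do not say what a number marks. The main tests did not use this pairing, and their SEs are unpaired. The replicate block, which uses it, was fitted as an alternative. Alternatives were DESeq2 1.42.0, limma 3.58.1 (voom), other normalisations, no filter, a replicate block, fits of fewer groups and omission of each library. For alternatives other than DESeq2 the numbers of all genes past the test are not given. The tests were checked on simulated counts drawn independently for each library, so the shared deviation by replicate number was not part of that check. Sequences and coordinates come from RefSeq TAIR10.1, a later release of the build the submitters name, in which 31912 of 32678 loci were found.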

Additional observations from a re-analysis of the deposited data

Results flagged for a closer look

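ARR9 drew attention because its response to BL at 7 days differed between the genotypes by a test of the difference itself. The BL effect in the triple mutant minus that in cpd was -0.78 on the log2 scale (edgeR's quasi-likelihood test, adjusted p = 0.00412). The untreated groups were at 4.74 CPM in cpd and 3.73 CPM in the triple mutant, and the treated ones at 10.02 and 4.56 CPM. The value ranged from -0.98 to -0.67 over 18 alternative analyses and passed in 17 of them (edgeR adjusted p 0.000687 to 0.21), the exception being the fit that assumed the spread of the 24-day libraries.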

How the results depend on the processing

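Of 1523 values of single members under alternatives, 1423 kept their direction and side of the threshold or were uncalled in both analyses, 52 lost a call and 48 gained one. The sign changed in 50, none of them called in either analysis. The numbers of members past the test that moved by more than 1.5 times are given first, and the cause was not tested except where fewer samples were fitted. With the spread of the 24-day libraries assumed at 7 days, 2 members passed for BL in cpd, 0 for the untreated genotype difference, 2 for the genotype difference with BL and 0 for the difference between BL effects. DESeq2 called 2 for BL in 7-day cpd, 1 for BL in 24-day cpd, 1 for the untreated genotype difference at 24 days and 3 for its change with age, and, as smaller moves, 3 for the genotype difference with BL at 7 days (ARR8 lost) and 5 for age in the triple mutant (ARR4 lost). With the replicate block 1 member passed for BL in 24-day cpd, 4 for the untreated genotype difference at 24 days and 3 for its change with age. The change of the BL effect in cpd with age gave 1. The block changed no other count. At 7 days same-numbered libraries did not deviate together (correlation -0.0399 to 0.0707, best with the own number in 17 of 36 cases), so the block there is a description only. In fits of the compared groups alone, 2 members passed for BL in 24-day cpd, 0 for the genotype difference with BL at 24 days, 1 for the change of the BL effect in cpd with age and 1 for the change of the untreated genotype difference with age. With voom each of the last 2 comparisons gave 1. Without replicate 3 in every 24-day group, 3 members passed for the untreated genotype difference and 5 for its change with age. The same omission gave 2 for the genotype difference with BL at 24 days, ARR6 and ARR7, with 0 shared with the 3 called in all libraries, and 6 for age in cpd, with ARR5 and ARR7 gained.

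Leaving out 1 library at a time, the number past the test was 2 to 3 for BL in 7-day cpd, 0 to 1 in the 7-day triple mutant, 2 to 2 for the untreated genotype difference at 7 days, 3 to 5 with BL and 1 to 2 for the difference between BL effects. At 24 days it was 0 to 0 for both BL effects and for their difference, 0 to 4 for the untreated genotype difference and 0 to 2 with BL. For changes with age it was 0 to 1 (BL effect in cpd), 0 to 5 (untreated genotype difference), 3 to 4 (cpd) and 5 to 5 (triple mutant). At the depth of the 7-day libraries a level under 0.239 to 0.295 CPM could not be told from 0.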
